A study of Mus musculus with 33 samples.

Results

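Haemoglobin genes and 3 other genes of the red cell lineage were followed through mouse tongues and costal chondrocytes. The members were every row whose name starts with Hba- or Hbb-, together with Slc4a1, Alas2 and Klf1. No pseudogene carried such a name. This gave 11 genes, of which 8 are globins, among 30188 gene rows over all tables. The 3 tongue tables listed 10 of the 11 among 27825 genes each, and Alas2, which lies on the X chromosome, was not analysed there. The chondrocyte table listed all 11 among 25965 genes.

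The series set mice in which both alleles of Zac1 (Plagl1) are expressed against wild type mice. Zac1 is an imprinted gene for a zinc finger transcription factor. Per the labels, the biallelic mice carry a knockout named Zac1o. Tongues were sequenced at E13.5 (days of embryonic life), at birth (P0) and at 20 days after it (P20), 3 libraries of each genotype at each stage. Rib chondrocytes of E18.5 embryos came from 6 biallelic and 5 wild type animals and were sorted for Cd24a and Cd200, about 2000 cells a library. Sorted cells were kept as live by DAPI, and no step against red cells is described in the labels. No sex, litter or date is given in the sources used here.

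Red cells of the early mouse embryo form in the yolk sac and enter the circulation with a nucleus. Their haemoglobin holds embryonic globins, though not these alone. The embryonic globins are Hba-x (zeta) on the alpha side and Hbb-y (epsilon y) and Hbb-bh1 (beta h1) on the beta side. Red cells that form later in the fetal liver, and after birth in the bone marrow and spleen, make the adult alpha globins Hba-a1 and Hba-a2 and the adult beta globins Hbb-b1 and Hbb-b2. Slc4a1 encodes band 3, the anion exchanger of the red cell membrane, Alas2 the erythroid enzyme of the initial step of haem synthesis, and Klf1 an erythroid transcription factor that binds CACCC elements in globin promoters. The tongue is not known as a site of red cell formation.

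The alpha-like genes lie in a row on chromosome 11 (GRCm38, GENCODE M21, plus strand), with Hba-x at 32276400 to 32278116, Hba-a1 at 32283511 to 32284465 and Hba-a2 at 32296489 to 32297298. The beta-like genes lie on the minus strand of chromosome 7, with Hbb-y at 103851745 to 103853240 and Hbb-bh1 at 103841636 to 103843164. Next in the direction of transcription come Hbb-bh2 at 103839145 to 103840427, Hbb-b1 at 103826534 to 103828096 and Hbb-b2 at 103812524 to 103813996. GENCODE names the last pair Hbb-bs and Hbb-bt. Slc4a1 lies on chromosome 11 (102348824 to 102366203, minus strand), Klf1 on chromosome 8 (84901928 to 84905295, plus strand) and Alas2 on chromosome X (150547375 to 150570638, plus strand).

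The promoters of an embryonic and an adult gene of each family are shown because the embryonic pair had no read in the P0 and P20 tongues while the adult pair was read at every tongue stage. Each is the 250 bases before the RefSeq transcription start on GRCm38.p6, 5′ to 3′ in the direction of the gene. Hbb-y is chr7:103853208-103853457 and Hbb-b1 (RefSeq Hbb-bs) chr7:103827929-103828178, both on the minus strand. Hba-x is chr11:32276350-32276599 and Hba-a1 chr11:32283422-32283671, both on the plus strand. Capitals mark matches to TATAA (the core promoter element of this name), CCAAT (bound by the factor NF-Y), CACCC (the element that Klf1 binds) and GATAA (bound by Gata1), on either strand.
Hbb-y: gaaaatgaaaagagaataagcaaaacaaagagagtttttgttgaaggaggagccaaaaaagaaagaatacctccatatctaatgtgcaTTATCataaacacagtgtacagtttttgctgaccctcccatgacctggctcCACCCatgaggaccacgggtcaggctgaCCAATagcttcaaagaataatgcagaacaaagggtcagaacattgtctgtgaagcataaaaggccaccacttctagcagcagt
Hbb-b1: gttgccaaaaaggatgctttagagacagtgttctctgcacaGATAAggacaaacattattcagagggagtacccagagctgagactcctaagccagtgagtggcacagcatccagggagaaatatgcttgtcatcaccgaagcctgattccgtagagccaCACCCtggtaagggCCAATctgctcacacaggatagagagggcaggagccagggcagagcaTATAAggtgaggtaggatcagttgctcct
Hba-x: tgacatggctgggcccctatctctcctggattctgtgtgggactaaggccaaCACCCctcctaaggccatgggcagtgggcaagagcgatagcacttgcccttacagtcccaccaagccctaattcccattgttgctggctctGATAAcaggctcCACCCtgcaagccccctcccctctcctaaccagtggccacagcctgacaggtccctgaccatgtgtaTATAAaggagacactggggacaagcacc
Hba-a1: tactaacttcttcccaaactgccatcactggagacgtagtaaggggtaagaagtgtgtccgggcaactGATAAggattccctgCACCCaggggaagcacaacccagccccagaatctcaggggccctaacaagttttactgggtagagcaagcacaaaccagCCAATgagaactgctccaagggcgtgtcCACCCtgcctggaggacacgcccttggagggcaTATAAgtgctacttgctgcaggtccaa

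All of these 4 promoters held a GATAA and a CACCC, and Hbb-y held its GATAA on the opposite strand. Counted from the start, CACCC began at -111 in Hbb-y and at -90 in Hbb-b1, at -198 and -95 in Hba-x, and at -167 and -60 in Hba-a1. TATAA began at -29 in Hbb-b1, -28 in Hba-x and -27 in Hba-a1, and these letters were not in the window of Hbb-y. CCAAT began at -83 in Hbb-y, -76 in Hbb-b1 and -88 in Hba-a1, and was not in the window of Hba-x. RefSeq promoters were matched for 9 of the 11 members, all but Hbb-bh1 and Slc4a1. Of the 7 globin promoters, GATAA was in 7, CACCC in 6, CCAAT in 5 and TATAA in 5. The windows of Hba-a1 and Hba-a2 held nearly the same sequence, so they are not separate cases in these counts. Among 32851 promoters of the same length GATAA was in 22.6%, CACCC in 52%, CCAAT in 33.8% and TATAA in 22.8%. No match overlapped that of another motif (40 matches in the 9 promoters). The gene bounds of GENCODE begin inside each of the 4 windows shown, upstream of the RefSeq start. A match is a run of letters and not a measured binding site.

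The authors deposited values as log2 RPM, where RPM are reads scaled to 1000000 reads of the library, and whole reads were recovered from them. The tongue libraries had read totals of 36832717 to 92249098, and the chondrocyte libraries of 2938462 to 15689559. A floor of 3 reads corresponded to 0.0325 to 0.0814 RPM in a tongue library and to 0.191 to 1.02 RPM in a chondrocyte library, counting error only. Plagl1 was higher in every biallelic than in every wild type library of its table, for example at 430 to 499 RPM against 221 to 243 RPM at P0. E13.5 biallelic replicate 3 stood apart from the other 5 libraries of its table on the first principal component (42.7% of the variance). At P20 biallelic replicate 3 lay at 39.8 on that component, against at most 10.1 for the others (60.8%). At P0 biallelic replicate 1 and wild type replicate 2 lay at 28.0 and 29.0, and the other 4 at -20.5 to -7.05 (54.1%). Among the chondrocytes, wild type animals 7, 8 and 9 stood apart. The chondrocyte libraries held Col2a1 at 154 to 760 RPM and no read of Krt5, and also macrophage markers, whose 4 genes summed to 2079 to 2814 RPM in biallelic and 1719 to 2650 RPM in wild type animals. Replicates are called biological in the labels of the tongues.

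Adult globins share sequence within their families. Of all stretches of 100 bases in the transcript, 25.5% were found in Hba-a2 alone, 37.4% in Hbb-b1 alone, 43.5% in Hba-a1 alone and 45.2% in Hbb-b2 alone, among 17 to 19 other globin transcripts. The shared stretches were shared with the other adult gene of the family. For Hbb-y, Hbb-bh1, Hba-x and Hbb-bh2 the figure was 100%. The sources used here do not say how reads that match several places were counted. Levels of single adult globins, and their ratio to the embryonic ones, are therefore uncertain, and those of the embryonic genes are not touched by this.

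Embryonic globins were abundant at E13.5 and had no read at P0 or P20. Hbb-y, the main embryonic beta globin, stood at 241, 332 and 1374 RPM in the 3 biallelic tongues at E13.5, against 711, 256 and 367 RPM in the wild type tongues. Hba-x, the embryonic alpha globin, stood at 20.997, 19.1 and 129 RPM in the biallelic tongues, against 44.2, 14.7 and 18.497 RPM in wild type. Hbb-bh1, the other embryonic beta globin, stood at 12.96, 11.9 and 142 RPM in the biallelic tongues, against 20.02, 8.56 and 17.5 RPM in wild type. Biallelic replicate 3 was the highest of the 6 libraries for each of these genes, and the genotypes overlapped. Hbb-bh2, a further gene of the beta-like row, had 4 reads in that same library and none in the other 17 tongue libraries.

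At P0 each of Hbb-y, Hba-x and Hbb-bh1 had 0 reads in all 6 libraries, and the same held at P20. Against a floor of 3 reads over the 6 libraries of a stage (0.00723 RPM at P0), Hbb-y was at least 75686-fold lower at P0 than its E13.5 mean of 547 RPM. The bounds were at least 5691-fold for Hba-x (E13.5 mean 41.1 RPM) and at least 4908-fold for Hbb-bh1 (35.5 RPM). Set against the lowest E13.5 library instead of the mean, they were at least 33403-fold for Hbb-y, 2034-fold for Hba-x and 1185-fold for Hbb-bh1. At P20 the bounds from the E13.5 means were at least 57676-fold for Hbb-y, 4337-fold for Hba-x and 3740-fold for Hbb-bh1. In bulk tissue, fewer red cells of a kind and less RNA per cell cannot be told apart. RNA was extracted with another reagent at E13.5 than at P0 and P20, so extraction and stage cannot be told apart in that step either.

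**Figure D1:**
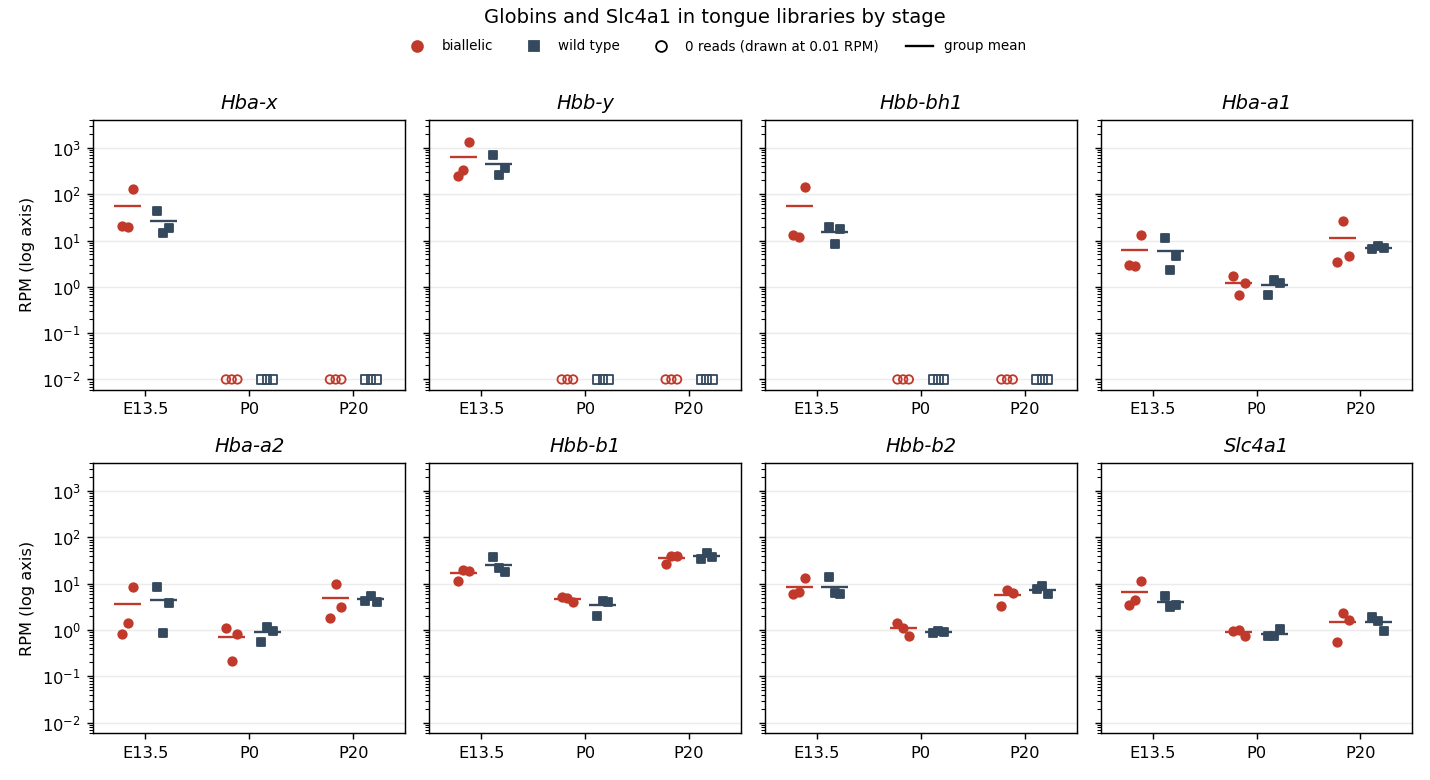
RPM on a log axis (vertical) of globins and Slc4a1 in each tongue library at E13.5, P0 and P20, biallelic left of wild type, with open symbols for libraries with 0 reads. Hbb-y, Hba-x and Hbb-bh1 had reads in the 6 libraries at E13.5 and in none of the 12 later ones, while the adult globins were lowest at P0.

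Per kilobase of exon, Hbb-y led at E13.5 with a mean of 864 RPM per kb over the 6 libraries. Hbb-bh1 followed at 57.9 and Hba-x at 43.9 RPM per kb, and these neighbours overlapped in their libraries (14.0 to 232 and 15.7 to 138 RPM per kb). Both means rested on biallelic replicate 3, and without it, an alternative chosen after the data were seen, they were 23.1 for Hbb-bh1 and 25.05 for Hba-x, below Hbb-b1 at 28.3 RPM per kb. Hba-x was above Hbb-bh1 per kb in 4 of the 6 libraries. Next in the means over 6 libraries came Hbb-b1 at 27.6, Hbb-b2 at 12.3, Hba-a1 at 7.64 and Hba-a2 at 5.95 RPM per kb. Slc4a1 had 1.08 RPM per kb and Klf1 0.229. Hbb-y exceeded Hbb-bh1 in every library, by 9.38 to 34.4 times per kb (median 23.6). The lowest of these ratios was that of biallelic replicate 3, in which Hbb-bh1 was highest.

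Within a library, the share of a globin family's reads that fell on its embryonic genes does not depend on how much blood the tissue held. At E13.5 Hbb-y, Hbb-bh1 and Hbb-bh2 together took 93.6%, 92.8% and 97.9% of beta-like reads in the biallelic tongues, against 93.5%, 90.4% and 94.1% in wild type. The means were 94.8% ± 2.76 in biallelic and 92.7% ± 1.99 in wild type tongues (SD, n = 3 each). Hba-x took 84.6%, 81.8% and 85.6% of alpha-like reads in the biallelic tongues, against 69.3%, 82.1% and 68.6% in wild type. These alpha-like means were 84.0% ± 1.99 in biallelic and 73.3% ± 7.60 in wild type tongues (SD, n = 3 each). Embryonic genes held most of the counted reads of both families in every E13.5 library, and the genotypes overlapped in both shares. Of the stretches of 100 bases, only 43.5% were found in Hba-a1 alone and 25.5% in Hba-a2 alone. If shared reads were dropped, the alpha-like shares are too high, and a majority of Hba-x among the transcripts is not shown. No test was run on these shares, because they are scores over the chosen genes.

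The share was 0 at later stages. At P0 it was 0 of 2057 beta-like reads, which allows up to 0.146%, and 0 of 808 alpha-like reads, which allows up to 0.371%. At P20 it was 0 of 13944 beta-like reads (up to 0.0215%) and 0 of 4527 alpha-like reads (up to 0.0663%). A count that drops reads with several matches would lower the adult genes and raise the E13.5 shares. With the adult gene of most reads alone in place of both, the alpha-like share was 88.4% in biallelic and 82.0% in wild type tongues.

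**Figure D2:**
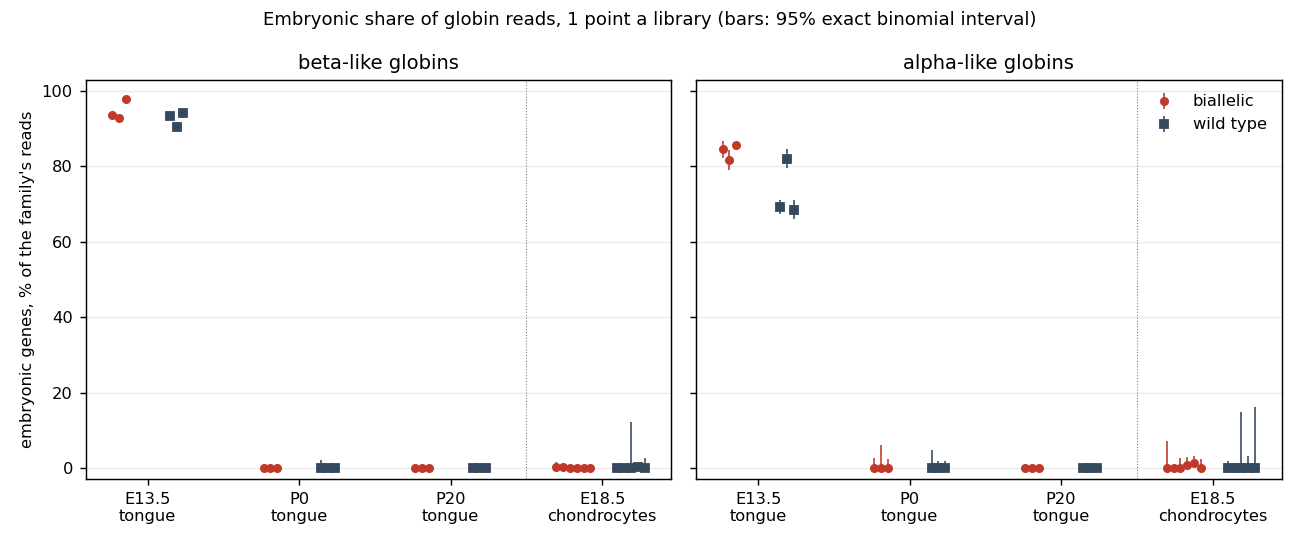
Share of beta-like (left) and alpha-like (right) globin reads that fell on embryonic genes, in percent, 1 point a library with its 95% exact binomial interval, biallelic left of wild type. All E13.5 tongues lie between 90.4% and 97.9% (beta-like) and between 68.6% and 85.6% (alpha-like), and all P0 and P20 tongues lie at 0.

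Adult globins were present at all 3 stages, with their lowest levels at P0. Hbb-b1, the more abundant adult beta globin, stood at 11.4, 20.01 and 18.6 RPM in biallelic tongues at E13.5, against 37.1, 21.8 and 18.2 RPM in wild type. At P0 it stood at 5.19, 4.80 and 3.95 RPM in biallelic tongues, against 1.96, 4.27 and 3.96 RPM in wild type. At P20 it stood at 26.95, 40.3 and 40.6 RPM in biallelic tongues, against 34.5, 45.2 and 37.5 RPM in wild type. No P0 library of either genotype reached the lowest library of the other stages, and the genotypes overlapped at each stage.

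Hba-a1, the adult alpha globin with more reads, had a similar course. At E13.5 it stood at 3.003, 2.88 and 13.2 RPM in biallelic tongues, against 11.1, 2.35 and 4.69 RPM in wild type. At P0 it stood at 1.72, 0.674 and 1.21 RPM in biallelic tongues, against 0.682, 1.41 and 1.24 RPM in wild type. At P20 it stood at 3.50, 26.4 and 4.70 RPM in biallelic tongues, against 6.63, 7.59 and 6.85 RPM in wild type. The 6 P0 libraries lay below all libraries of E13.5 and P20, and P20 biallelic replicate 2 lay far above the other 5 of its stage. Hbb-b2 ranged over 5.92 to 13.8 RPM at E13.5, 0.758 to 1.39 RPM at P0 and 3.30 to 8.72 RPM at P20. Hba-a2 ranged over 0.832 to 8.50, 0.210 to 1.17 and 1.85 to 9.77 RPM at E13.5, P0 and P20, with P0 overlapping E13.5.

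Stages were compared with limma in a single fit of the 18 tongue libraries and the 13663 genes that reached 1 RPM in 3 or more of them, with Benjamini-Hochberg adjustment over all these genes and a threshold of 0.05. Between E13.5 and P0, 84.7% of genes passed, 42.4% higher and 42.3% lower at P0. Of the members 8 were tested, and all 8 were lower at P0. The 3 embryonic globins passed the filter only through their E13.5 level and therefore had to differ, so that this count supports nothing beyond their values. Among the adult genes, Hbb-b2 fell by 3.05 ± 0.26 on the log2 scale (SE, limma adjusted p = 8.34e-09) and Hbb-b1 by 2.37 ± 0.21 (limma adjusted p = 1.69e-08). Hba-a1 fell by 2.17 ± 0.51 (SE, limma adjusted p = 0.000761) and Hba-a2 by 1.86 ± 0.63 (limma adjusted p = 0.0113). Larger falls were fitted for 302 genes in the case of Hbb-b2, 685 for Hbb-b1, 878 for Hba-a1 and 1271 for Hba-a2. Hba-a2 missed the threshold within wild type (-1.84, limma adjusted p = 0.069) and within biallelic tongues alone (-1.89, limma adjusted p = 0.0622).

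Between P0 and P20, 62.9% of genes passed, of which 41.8% of all tested were higher and 21.1% lower at P20. Of the 8 members tested, the 4 adult globins were higher at P20. Hbb-y, Hba-x and Hbb-bh1 had 0 reads at both stages. Their fitted log2 difference of 0.37 came from the value that stands for 0 reads, which varies with library depth, and none passed. Hbb-b1 rose by 3.27 ± 0.21 on the log2 scale (SE, limma adjusted p = 3.67e-09) and Hbb-b2 by 2.68 ± 0.26 (limma adjusted p = 2.76e-07). Hba-a1 rose by 2.74 ± 0.51 (SE, limma adjusted p = 0.000194) and Hba-a2 by 2.58 ± 0.63 (limma adjusted p = 0.00194). Larger rises were fitted for 104 genes in the case of Hbb-b1 and for 205 in that of Hba-a2. The median gene was 0.20 higher at P20 on the log2 scale, and -0.0035 after median centring. With that centring the calls over all genes were 3992 higher and 4306 lower at P20, in place of 5710 higher and 2888 lower, and the 4 adult globins were still higher, by 2.38 to 3.06. Endothelial markers, which mark the vessels that hold blood, summed to 226, 232 and 374 RPM in biallelic tongues at P20, the last in replicate 3. In wild type tongues they summed to 195 to 237 RPM at P20. At P0 they summed to 158 to 180 RPM in biallelic and 167 to 176 RPM in wild type tongues. At E13.5, before the fall of the adult globins to P0, the sums were lower, 23.9 to 81.3 RPM in biallelic and 26.7 to 47.9 RPM in wild type. The part of these markers in the changes of the globins was not tested.

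Slc4a1 fell between E13.5 and P0 as well. This anion exchanger of the red cell membrane, band 3, stood at 3.53, 4.45 and 11.5 RPM in biallelic tongues at E13.5, against 5.41, 3.19 and 3.45 RPM in wild type. At P0 it stood at 0.931, 0.988 and 0.745 RPM in biallelic tongues, against 0.730, 0.735 and 1.05 RPM in wild type. At P20 it stood at 0.542, 2.31 and 1.64 RPM in biallelic tongues, against 1.94, 1.60 and 0.948 RPM in wild type. The E13.5 libraries lay above all later ones, while P0 and P20 overlapped. Slc4a1 was lower at P0 than at E13.5 by a log2 difference of -2.46 ± 0.34 (SE, limma adjusted p = 4.01e-06). Between P0 and P20 its log2 difference was 0.66 ± 0.34 (SE, limma adjusted p = 0.105), which missed the threshold, and it passed without P20 biallelic replicate 1 (0.97, limma adjusted p = 0.0101).

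Klf1, the erythroid transcription factor, stood at 0.139, 0.244 and 0.645 RPM in biallelic tongues at E13.5, against 0.207, 0.401 and 0.465 RPM in wild type. It had 12 reads over the 6 libraries at P0 and 1 read at P20, in wild type replicate 3. It was too low for the filter at every stage and was not tested. Its E13.5 libraries lay above all later ones, and both genotypes overlapped.

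Hbb-b1 and Slc4a1 parted after birth. The reads of Hbb-b1 over those of Slc4a1 had a median of 4.89 at E13.5 and 5.08 at P0, and of 26.5 at P20, where the range was 17.4 to 49.7. All 6 ratios at P20 lay above the 1.61 to 6.86 of E13.5 and the 2.69 to 5.81 of P0. The reads of Hbb-b1 over those of Hbb-b2 lay between 1.41 and 3.44 at E13.5, between 2.33 and 5.21 at P0, and between 4.53 and 8.16 at P20. Reads shared by this pair leave that second ratio uncertain.

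Other genes of the red cell programme were counted in 5 lists. Many of them are also used outside red cells, and a list is described here by its counts beside the background given above. Of the 11 haem synthesis genes tested, 9 were lower and 2 higher at P0 than at E13.5, with a median log2 difference of -0.85 against 0.005 for all genes. Slc25a38, the glycine carrier of mitochondria, fell by 2.002 on the log2 scale, Alad by 1.86 and Urod by 1.34, both of them enzymes of the pathway. Fech, which inserts the iron, rose by 0.93 and Alas1, the enzyme of the initial step outside red cells, by 0.58. At P20 9 of the 11 were higher than at P0, with a median log2 difference of 0.51 against 0.20 for all genes. Among them were Slc25a38 (1.05), Tmem14c (0.77), Fech (0.53) and Abcb10 (0.51). After median centring 6 were higher and 1 lower.

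Red cell membrane and skeleton genes went both ways. Of 10 tested, 4 were higher and 4 lower at P0 than at E13.5 (median -0.38). The 4 that rose were Sptb (beta spectrin, 5.44 on the log2 scale), Tmod1 (tropomodulin, 5.12), Ank1 (ankyrin, 2.76) and Gypc (0.99), of which Sptb, Tmod1 and Ank1 are also known from skeletal muscle. Slc4a1 fell with Add2 (-1.48), Ermap (-1.13) and Dmtn (-0.55), and within wild type alone Dmtn stood at -0.02 (limma adjusted p = 0.943). Tongue markers, of muscle and epithelium, summed to 4074 to 4859 RPM in biallelic and 4465 to 5835 RPM in wild type tongues at P0. At E13.5 they summed to 281 to 512 RPM in biallelic and 350 to 588 RPM in wild type tongues, and their part in the list was not tested. At P20 Epb41 (protein 4.1) was higher than at P0 by 1.37, and Add2 (-2.01), Ermap (-1.44), Ank1 (-1.36) and Tmod1 (-0.70) were lower.

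Epb42, the red cell membrane protein 4.2, was too low for the filter in the tongues. It ran over 0.808 to 1.98 RPM in biallelic and 0.381 to 0.820 RPM in wild type tongues at E13.5, and its highest library was biallelic replicate 3. Its median over the 6 libraries was 0.265 RPM at P0 and 0.373 RPM at P20.

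Erythroid transcription factors had 3 higher and 4 lower of 7 tested at P0 against E13.5 (median -0.58). Sox6 rose by 2.55 on the log2 scale, Lmo2 by 1.94 and Cbfa2t3 by 1.503. Myb fell by 2.29, Bcl11a by 1.15, Ldb1 by 1.01 and Tal1 by 0.58. Tal1 was at the edge of the threshold (limma adjusted p = 0.0426) and missed it without any of 7 of the 18 libraries and after median centring (limma adjusted p = 0.108). At P20 5 of the 7 were higher than at P0 and none lower, among them Bcl11a (1.80), Cbfa2t3 (1.501), Myb (0.83) and Sox6 (0.67). Of 6 late erythroid genes tested, 5 were lower at P0, led by the peroxiredoxin Prdx2 (-3.01), with Fam210b (-0.67), Bpgm (-0.60) and Xpo7 (-0.31). Xpo7 missed the threshold when libraries were scaled to listed genes other than globins (-0.18, limma adjusted p = 0.0606) and within biallelic alone (-0.22, limma adjusted p = 0.110). At P20 4 of them were higher than at P0, Fam210b (0.65), Blvrb (0.58), Prdx2 (0.53) and Xpo7 (0.25), and 2 after median centring. Of 4 iron uptake genes tested, Steap3, a ferrireductase, rose by 4.30 at P0. At P20 Slc25a37 (mitoferrin, 1.13), Slc11a2 (0.83) and Tfrc (the transferrin receptor, 0.68) were higher than at P0, Tfrc with limma adjusted p = 0.0437, a call that was lost without any of 11 of the 18 libraries. After median centring 2 of the 4 iron genes were higher.

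At E13.5 the libraries of 1 genotype differed more than the genotypes did. The 8 globins summed to 297 to 1699 RPM in biallelic and 311 to 846 RPM in wild type tongues. Biallelic replicate 3 held the highest level of Hbb-y, Hbb-bh1, Hba-x, Hba-a1, Hba-a2, Slc4a1 and Klf1, by a margin of 13.2 against 11.1 RPM for Hba-a1 and 8.50 against 8.44 RPM for Hba-a2 over wild type replicate 1. Hbb-b1 did not follow, with 18.6 RPM in that library against 37.1 RPM in wild type replicate 1. Hbb-b2 was not highest there either, at 13.2 RPM against 13.8 RPM in wild type replicate 1. The reads of Hbb-b1 over those of Hba-a1 were 1.41 in biallelic replicate 3, and 3.81 and 6.95 in the other biallelic libraries, against 3.35 to 9.30 in wild type. The endothelial markers summed to 81.3 RPM in biallelic replicate 3 and to 23.9 to 47.9 RPM in the other 5 libraries, the tongue markers to 281 RPM there and 350 to 588 RPM elsewhere. The part of tissue make-up in these levels was not tested.

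**Figure D3:**
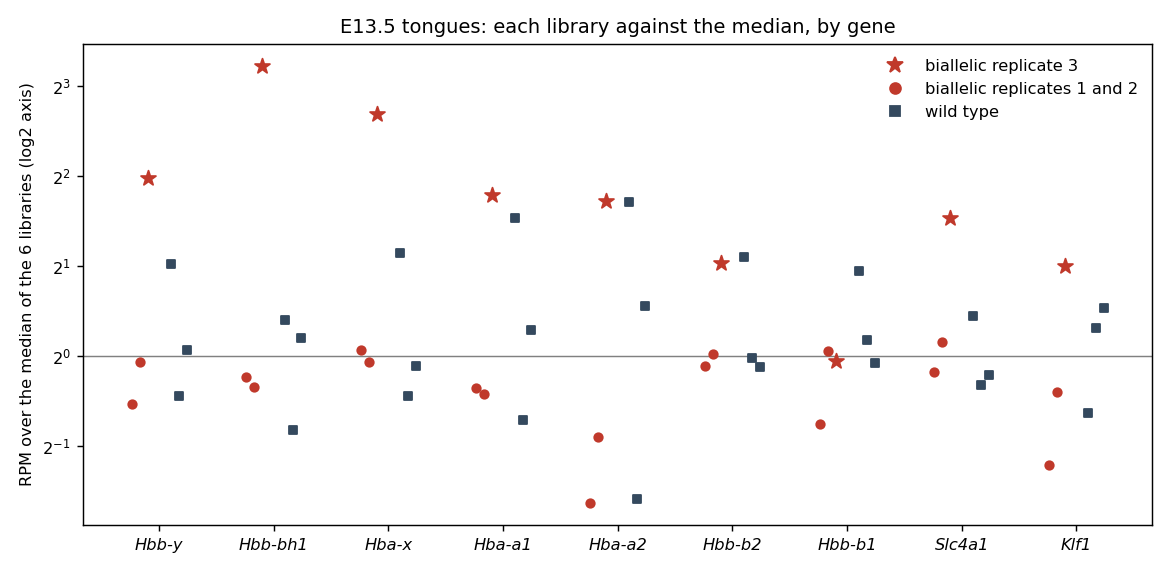
RPM of each E13.5 tongue library divided by the median of the 6 libraries (vertical, log2 axis) for 9 members, biallelic left of wild type, with a star for biallelic replicate 3. The star is highest for Hbb-y (1374 RPM), Hbb-bh1 (142 RPM) and Hba-x (129 RPM), and lies near the median for Hbb-b1 (18.6 RPM).

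Genotype was tested in each tongue table with limma, over genes that reached 1 RPM in 3 or more libraries, with Benjamini-Hochberg adjustment. At E13.5 none of 8 members tested passed, at P0 none of 2 and at P20 none of 5. Over all genes 0% of 11869 passed at E13.5, 0.016% of 12489 at P0 and 0% of 12693 at P20. At an unadjusted p under 0.05 the count of members was 0 at each stage, by limma and also by voom on the whole reads, and that of all genes by limma was 386, 412 and 286. Voom called 0 genes at each stage. No member had groups that did not overlap, against 10.1%, 8.9% and 6.89% of all genes at E13.5, P0 and P20.

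Among the members, the smallest p was that of Hbb-b1 at E13.5, with a log2 difference of -0.60 ± 0.28 (SE, limma adjusted p = 0.992). Embryonic globins leaned the other way at E13.5, with 0.96 ± 0.78 for Hbb-bh1, 0.70 ± 0.65 for Hba-x and 0.24 ± 0.57 for Hbb-y (SE). Without biallelic replicate 3 the values were -0.21 for Hbb-bh1, -0.19 for Hba-x and -0.52 for Hbb-y, so that their sign rested on that library. Slc4a1 was at 0.54 ± 0.41 (SE) at E13.5 and 0.02 without it. At P0 the differences were 0.52 ± 0.30 for Hbb-b1 and 0.08 ± 0.41 for Hba-a1 (SE). At P20 they were -0.46 ± 0.30 for Hbb-b2, -0.14 ± 0.19 for Hbb-b1 and 0.11 ± 0.69 for Hba-a1 (SE), the last at -0.79 without biallelic replicate 2. A p that misses the threshold does not show that the genotypes were alike, and with 3 libraries a group the standard errors of the globins ran up to 0.92.

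The difference of the genotype effect between stages passed for none of the 8 members, and for 0% of 13663 genes, from E13.5 to P0 and from P0 to P20 by limma and by voom. Among these members Hbb-y, Hba-x and Hbb-bh1 had 0 reads at P0 and P20. Their genotype effects there came from the value that stands for 0 reads, with the same -0.41 for each from P0 to P20. For these genes the test therefore decides nothing. At an unadjusted p under 0.05 limma had 766 and 185 genes for these steps, among them 1 and 0 members. That member was Hbb-b1, whose genotype effect was 1.12 ± 0.43 higher on the log2 scale at P0 than at E13.5 (SE, unadjusted limma p = 0.0183, limma adjusted p = 0.839). Of the 5 lists of red cell genes, none had a gene past the threshold for genotype in any table. The smallest unadjusted p in the tongues were those of Tal1 at P20 (0.56 ± 0.22, SE, limma adjusted p = 0.999973) and of Dmtn at E13.5 (0.71 ± 0.30, SE, limma adjusted p = 0.992).

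**Figure D4:**
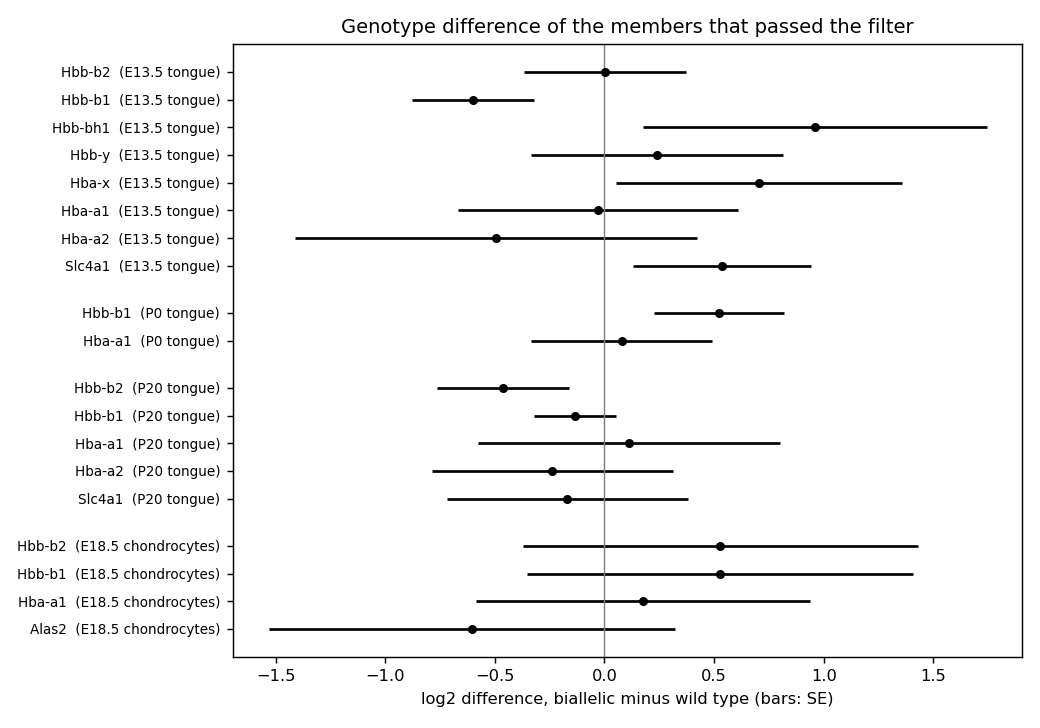
Log2 difference of biallelic minus wild type (horizontal, bars for the SE) of each member that passed the filter, by table. The values run from -0.60 for Hbb-b1 at E13.5 and Alas2 in chondrocytes to 0.96 for Hbb-bh1 at E13.5, and no adjusted p passed the threshold.

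P20 biallelic replicate 2 was set apart on the alpha side. It held Hba-a1 at 26.4 RPM and Hba-a2 at 9.77 RPM, above the 3.50 to 7.59 RPM and 1.85 to 5.49 RPM of the other 5 libraries. Its Hbb-b1, at 40.3 RPM, and Hbb-b2, at 7.16 RPM, lay within the range of the others. The reads of Hbb-b1 over those of Hba-a1 were 1.52 there, against 5.20 to 8.65 in the other P20 libraries.

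Sorted chondrocytes at E18.5 held adult globin reads in every animal and almost no embryonic ones. Hbb-b1 had a lowest value of 21.8, a median of 75.1 and a highest value of 235 RPM in the 6 biallelic animals. In the 5 wild type animals it stood at 65.8, 425, 3.76, 62.8 and 44.6 RPM (animals 7 to 11). Wild type animals 8 and 9 were the highest and the lowest of all 11, so the biallelic range lay inside that of wild type. Hba-a1 ran over 3.21 to 47.2 RPM with a median of 19.5 RPM in biallelic animals, against 22.8, 73.7, 3.04, 14.2 and 7.15 RPM in wild type. Hbb-b2 ran over 1.11 to 15.2 RPM in biallelic and 0.289 to 21.8 RPM in wild type animals, and Hba-a2 over 0 to 1.73 and 0 to 2.59 RPM.

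Alas2, the erythroid haem enzyme, was read in all 11 animals. It ran over 0.196 to 17.7 RPM with a median of 3.22 RPM in biallelic animals, against 3.19, 17.6, 1.74, 2.92 and 3.74 RPM in wild type. Biallelic animal 5 and wild type animal 8, the highest for Alas2, were also the highest of their groups for Hbb-b1 and Hba-a1. Slc4a1 had 8 reads in biallelic animal 2 (0.510 RPM) and none in the other 10 animals. Klf1 had 17 reads in 4 animals, 12 of them (1.74 RPM) in wild type animal 9, the animal with the fewest Hbb-b1 reads.

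Embryonic globins had single reads in the chondrocytes. Hba-x had 2 reads in biallelic animal 4 and 5 in biallelic animal 5. Hbb-y had 4 reads in biallelic animal 2, 1 in biallelic animal 3 and 1 in wild type animal 10, and Hbb-bh1 and Hbb-bh2 had 1 read each, in biallelic animals 1 and 6. The embryonic share was 8 of 9570 beta-like reads (0.0836%), in 5 of 11 animals, and 7 of 2196 alpha-like reads (0.319%), in 2 of 11. Biallelic libraries had 7 of the 8 and all 7 of these reads, and were also the deeper ones (7221013 to 15689559 reads against 2938462 to 7887305 reads in wild type). The difference between genotypes in these reads was not tested.

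None of the 4 members tested in the chondrocytes passed limma with Benjamini-Hochberg adjustment for genotype, over the 11127 genes that reached 1 RPM in 5 or more animals, of which 0% passed. At an unadjusted p under 0.05 limma had 1298 genes and 0 members, and voom called 0 genes. The log2 differences were 0.52 ± 0.88 for Hbb-b1, 0.53 ± 0.90 for Hbb-b2, 0.18 ± 0.76 for Hba-a1 and -0.60 ± 0.93 for Alas2 (SE). The groups of all 4 overlapped, against 0.872% of genes whose groups did not. Wild type animals 7, 8 and 9 also held neutrophil lineage markers at a sum of 1825, 1087 and 1630 RPM, against 66.4 to 204 RPM in the biallelic animals and 149 and 109 RPM in the other wild type animals. Their part in the globin levels was not tested. Of the red cell lists, the genes of smallest p in the chondrocytes were Slc25a38 (-1.19 ± 0.41, SE, limma adjusted p = 0.423) and Nfe2, an erythroid and myeloid factor (-1.19 ± 0.50, SE, limma adjusted p = 0.425).

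Across the 11 chondrocyte animals, Hbb-b1 varied with Hba-a1, Hbb-b2 and Alas2. Over 3 pairs tested by permutation on log2 RPM, Hbb-b1 and Hba-a1 had Pearson's r = 0.91 (permutation p = 2e-05, the smallest that 100000 resamples give here, adjusted 6e-05) and Spearman's rho = 0.94 (permutation p = 0.0001, adjusted 0.0003). Without the 2 animals farthest from the median of Hbb-b1, wild type 8 and 9, r was 0.90. Hbb-b1 and Hbb-b2, which share sequence, had r = 0.98 (permutation p = 4e-05, adjusted 6e-05) and rho = 0.93 (permutation p = 0.0003, adjusted 0.00045), and r = 0.95 without those animals. Hbb-b1 and Alas2, which lie on different chromosomes, had r = 0.71 (permutation p = 0.0361, adjusted 0.0361) and rho = 0.81 (permutation p = 0.0044, adjusted 0.0044), and r = 0.92 without those animals. Without wild type animals 7, 8 and 9 the r was 0.92, 0.96 and 0.92 for Hba-a1, Hbb-b2 and Alas2 (n = 8).

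**Figure D5:**
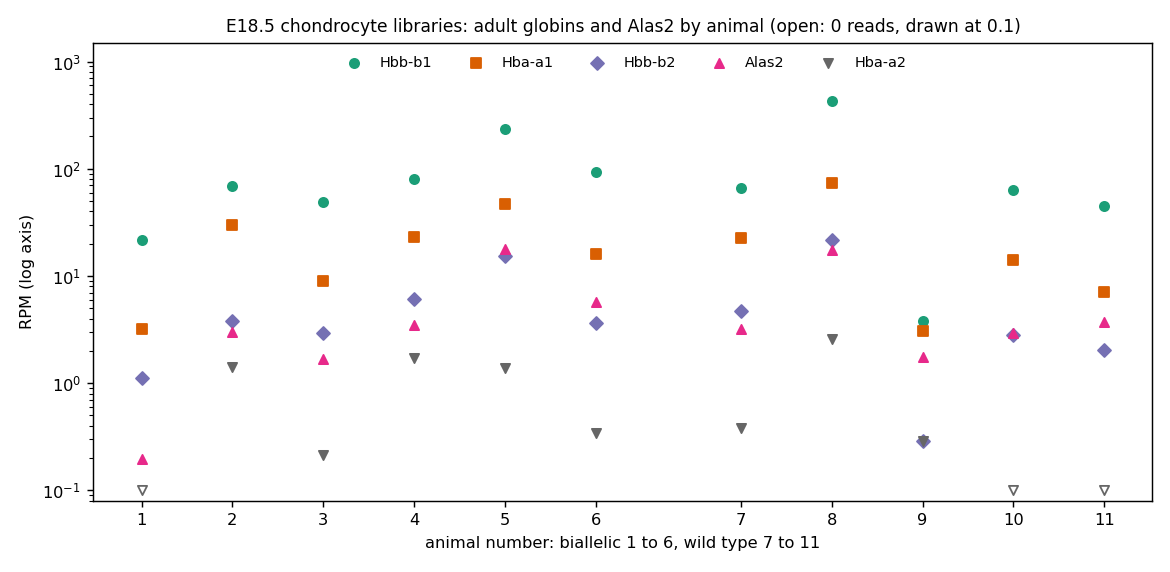
RPM on a log axis (vertical) of the adult globins and Alas2 in each chondrocyte animal (horizontal, biallelic 1 to 6, then wild type 7 to 11), with open symbols for 0 reads. The genes are high together in biallelic animal 5 and wild type animal 8, and Hbb-b1 is lowest in wild type animal 9 (3.76 RPM).

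The adult pairs had unequal read counts in the chondrocytes, and reads shared within a pair leave their ratios uncertain. Ratios were taken only in animals with at least 3 reads of both genes. The reads of Hbb-b1 over those of Hbb-b2 were 13.3 to 25.4 (10 animals), and those of Hba-a1 over Hba-a2 13.3 to 59.7 (7 animals). Hba-a2 had 0 to 22 reads in an animal, so its ratio rested on few reads. In the tongues the same ratios were 1.41 to 8.16 and 1.20 to 3.61. Library kits, aligners and tissue all differ between these tables, so the ratios are given side by side and not compared.

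The genes whose pattern was most like that of Slc4a1 were sought over the 18 tongue libraries, on log2 RPM as deviations from the mean of each stage, among 12821 genes with a mean of at least 1 RPM. As a description, Pearson's r was highest for Adora1 (0.84), Car2 (0.81), Lgr5 (0.81), Ube2l6 (0.79), Iah1 (0.78) and Creb3 (0.77). Car2, carbonic anhydrase 2, was also among the late erythroid genes listed. Among the members r was 0.81 for Hbb-b2, 0.69 for Hba-a1, 0.60 for Hba-x, 0.59 for Hbb-bh1, 0.58 for Hba-a2, 0.58 for Hbb-y and 0.34 for Hbb-b1. Without E13.5 biallelic replicate 3, an alternative chosen after the data were seen, it was 0.78 for Iah1 and 0.73 for Adora1, 0.76 for Hbb-b2, 0.23 for Hba-x and Hbb-y and 0.14 for Hbb-bh1. The embryonic globins have reads at 1 stage, so their r rests on 6 libraries. In the chondrocytes Slc4a1 had reads in 1 of 11 animals, and no likeness was computed.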

How the data were processed

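The authors deposited 4 tables of log2 RPM (reads scaled to 1000000 reads of the library). The submitters' processing notes name GRCm38, Trim Galore 0.4.2, TopHat2 2.1.0 (tongues) and HISAT2 (chondrocytes). Neither the program that counted reads nor its strand setting was given in the sources used here. Per the labels' protocols, tongue libraries (18) were made after ribosomal RNA removal and chondrocyte libraries (11 animals) by SMART-seq2.

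In the deposited values 0.9 reads stand for 0 reads, and 100% of values under 1000 reads came out whole within 0.05 of a read, so reads were recovered. The labels list 33 samples for 29 columns, since 4 biallelic chondrocyte animals have 2 libraries and 1 column. Each animal counted once, and 0 columns were left unused.

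The deposited log2 values were tested with limma 3.58.1 (trend) in R 4.3.3, each genotype comparison within its table and stages in 1 fit of 18 tongues. The filter was 1 RPM or more in at least 3 tongue libraries or 5 chondrocyte animals. No value was added before the logarithm. The adjustment was Benjamini-Hochberg over all genes tested, with a threshold of 0.05. Voom on whole reads was the count alternative. The scripts were tested on simulated data. Shares carry 95% exact binomial intervals, which cover counting error only.

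All members are named, and from each list up to 4 genes of smallest p past the threshold in each direction, or else 2. Genes named outside this rule were chosen after their values were seen. Some genes that the rule takes are left out and are not analysed here by name. Members and lists were chosen with earlier results of these data known. The alternatives tried were the filter, the value added, scaling, the count test, the replicate block, single genotypes and each library left out. No pair of libraries agreed within sampling noise (lowest chi-square 7.70 per degree of freedom).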

Additional observations from a re-analysis of the deposited data

How the results depend on the processing

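Of 1086 member values under an alternative, 1083 kept their side of the threshold, 2 lost a call (Hba-a2, P0 minus E13.5, in each genotype alone), 1 gained one (Slc4a1, P20 minus P0) and 0 called values changed sign. Many of the 1086 could hardly change their call. Among them are the stage values of Hbb-y, Hba-x and Hbb-bh1, which had 0 reads at P0 and P20. Leaving out a library of a stage outside a contrast also left the fitted difference in place. The count is therefore no measure of robustness. Over 3328 values of members and listed genes 36 lost a call, and 66 uncalled values changed sign. Counts of members past the threshold were 0 for every genotype comparison and interaction under each alternative run. For P0 minus E13.5 they were 7 to 10, with 7 of 8 tested in each genotype alone. With the filter at 5 RPM only 7 members were tested, and all 7 passed. The 10 came with no filter, where 22236 of 27825 genes passed, 14779 of them lower. Among these 10 was Hbb-bh2, with 4 reads in 1 E13.5 library and 0 reads at P0. The value that stands for 0 reads varies with library depth, so the call of Hbb-bh2 does not show a fall. For P20 minus P0 the count was 4, and 4 to 5 when 1 library was left out. The embryonic share of alpha-like reads at E13.5 moved to 81.0% in biallelic tongues with reads per kb. With the adult gene of most reads alone it moved to 88.4% in biallelic and 82.0% in wild type tongues, which follows from the smaller denominator. With the replicate block 8 members passed for P0 minus E13.5 and 4 for P20 minus P0, among 11555 and 8570 genes, and no member changed its call. Whether the replicate numbers pair the tongues was checked by the correlation of same-numbered libraries. It was 0.16, 0.04 and 0.14 at E13.5, -0.34, -0.49 and 0.36 at P0 and -0.31, -0.29 and -0.65 at P20. Of the 3 biallelic libraries of a stage, 3 at E13.5, 1 at P0 and 0 at P20 correlated best with the wild type library of their number, a hint from the data and not from the design. Leaving out wild type animals 7, 8 and 9 together was added after the data were seen and gave 0 members past the threshold. Depth limits the embryonic globins in the chondrocytes, where 3 reads in a library were up to 1.02 RPM, and the sharing of reads limits each adult globin.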

Other observations

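Genes of the megakaryocyte lineage, which shares precursors with red cells, were read in the sorted chondrocytes. Itga2b, integrin alpha IIb of platelets, stood at 59.7 RPM in wild type animal 8, the animal with the most Hbb-b1, and at 13.8 RPM in biallelic animal 5, the next. It was at 0 to 0.353 RPM in the other 5 biallelic animals and at 0 to 2.55 RPM in the other 4 wild type animals. The list of platelet and megakaryocyte markers as a whole did not follow Itga2b. It summed to 255 RPM in biallelic animal 5, within the 253 to 816 RPM of the biallelic animals, and to 412 RPM in wild type animal 8, against 444 to 566 RPM in the other wild type animals. Gata1, a transcription factor of both lineages, had 16 reads (2.76 RPM) in wild type animal 8 and 6 reads (0.831 RPM) in biallelic animal 5. Gata1 had 3 and 1 reads in biallelic animals 1 and 2 and none in the other 7 animals. Nfe2, another factor of these lineages, ran over 2.16 to 12.5 RPM in biallelic and 5.96 to 28.4 RPM in wild type animals, and was highest in wild type animal 9, where Hbb-b1 was lowest. These genes were picked after their values were seen, and no test was run on them.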
